A study of Mus musculus with 2 samples.

Results

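C7 was, beside C5 and C10, a cluster of cycling cells among the Sirpa+ conventional dendritic cells of mouse spleen, and every one of its cells carried a deposited cell cycle phase of S or G2M. Its members were the cells whose deposited cluster label at resolution 0.5 was 7, which gave 1054 of 24343 cells. The study sorted live MHCII+CD11c+ cells from T and B cell-depleted spleens and measured their transcripts, together with 11 antibody tags, in single cells. The cells came from female C57BL/6 mice, 8 weeks old, that were either wildtype (WT) or Batf3-/-. WT mice came from the Animal Resources Centre, while Batf3-/- mice came from Jackson Laboratories and were bred in house. Genotype, source of the mice and library thus cannot be told apart. Batf3-/- mice lack a transcription factor that cDC1 need for their development, in every cell of the animal. Splenocytes of 6 mice were pooled for each genotype and gave 1 library per genotype, so no value below has a spread between animals. The 2 libraries were the only samples. Levels are given in both, WT first, while log2 ratios, list medians and, where said, shares of cells with a transcript were taken over both libraries together. C7 held 496 of 12224 WT cells (4.06%, 95% Clopper-Pearson interval 3.71 to 4.42%) and 558 of 12119 Batf3-/- cells (4.60%, 4.24 to 4.99%). These intervals, like all others in the text, cover counting error only. WT cells included many cDC1 that the Batf3-/- library lacked, and outside the cDC1 clusters C7 made up 5.72% (5.24 to 6.23%) of WT and 4.93% (4.53 to 5.34%) of Batf3-/- cells. The order of the libraries thus depended on whether cDC1 were counted in the denominator.

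A dividing cell first licenses its replication origins in G1, when E2F transcription factors switch on the genes of DNA synthesis. It copies its DNA in S phase, which needs deoxynucleotides, the replication fork and new histones, and then builds the machinery of mitosis in G2. Many mitotic genes carry a promoter element called CHR, often next to CCAAT boxes, through which they are held silent until late in the cycle. Conventional dendritic cells keep dividing after they reach the spleen, and cDC2, marked by Sirpa, are the more abundant of their lineages there.

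The clusters C5 and C10 were the closest to C7, since they too were cycling Sirpa+ cells. C5 held 663 WT and 905 Batf3-/- cells, of which 643 and 830 were in S. C10 held 243 WT and 346 Batf3-/- cells, of which 217 and 288 were in G2M. C0, with 3176 WT and 2961 Batf3-/- cells, was the largest non-cycling Sirpa+ cluster and served as the resting reference. Clusters had been built on the same transcripts that are compared here, so differences between clusters are description and were given no test.

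The cells of C7 were deeply sequenced. They had a median of 13143.5 UMIs (unique transcript molecules counted) in WT and 14618.5 in Batf3-/-, and a median of 3532.5 and 3680.5 genes. Medians in C5 were 9919 and 11116 UMIs, and in C10 they were 8239 and 9092. The study had removed cells with more than 5000 genes, and 19 WT (3.83%) and 37 Batf3-/- (6.63%) C7 cells had more than 4500, against 11 (1.66%) and 30 (3.31%) in C5. Scrublet marked 36 WT (7.26%) and 33 Batf3-/- (5.91%) C7 cells as doublets, compared with 4.43% and 2.01% of all cells in the libraries. They were kept. Without them 366 genes were at least 2-fold higher in C7 than in C5 and 539 higher than in C10, close to the counts with them that follow. The libraries shared 56 cell barcodes, of which 4 belonged to C7 cells of WT and 1 to a C7 cell of Batf3-/-, with none in C7 of both. Batf3 stood at 153 CPM (UMIs per 1000000 UMIs of the summed cells) in WT C7 and at 0.605 CPM in Batf3-/- C7, as the labels state.

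Both genes given as markers of C7 were detected throughout the cluster. They belong to the G2M list from which the phases were scored, so their levels describe the label and are not separate evidence for it. Mki67, a protein that coats mitotic chromosomes and marks proliferating cells, stood at 791 CPM (exact Poisson 95% interval 769 to 812) in WT and 765 CPM (746 to 784) in Batf3-/- C7. In C5 it stood at 55.2 and 53.4 CPM, in C10 at 541 and 521, and in C0 at 18.5 and 17.5. Top2a, the topoisomerase that untangles sister chromatids, stood at 875 CPM in WT and 812 CPM in Batf3-/- C7, at 70.2 and 63.2 in C5, at 403 and 329 in C10 and at 7.43 and 7.27 in C0. For both genes the 2 libraries differed far less than the clusters did. Since deeper cells show more genes, shares of cells with a transcript were compared after thinning each cell to 1000 UMIs. Over both libraries Mki67 was then seen in 51.7% of C7 cells (48.6 to 54.7%), 33.3% of C10, 5.17% of C5 and 1.71% of C0. Top2a was seen in 55.7% of C7, 18.3% of C10, 6.25% of C5 and 0.669% of C0. In C7 alone the share was 50.7% of WT and 52.5% of Batf3-/- cells for Mki67, and 57.4% and 54.1% for Top2a. The share in resting C0 is the background for these genes, and C7 lay far above it. Without thinning, 98.8% of C7 cells had Mki67 and 99.4% had Top2a.

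Lineage genes were read to describe the label of cDC2, which rests on the same transcripts. Sirpa stood at 174 CPM in WT and 173 CPM in Batf3-/- C7. Zbtb46, a transcription factor of conventional dendritic cells, stood at 44.9 and 43.8 CPM, and Flt3, their growth factor receptor, at 103 and 98.6 CPM. Xcr1 and Clec9a, which define cDC1, were near 0. Xcr1, the chemokine receptor of cDC1, stood at 4.55 and 3.99 CPM, and Clec9a, their dead cell receptor, at 8.50 and 3.75 CPM. After thinning, Xcr1 was seen over both libraries in 0.285% of C7 cells, against 37.9% of the cDC1 cluster C4 and 17.8% of the cycling cDC1 cluster C6. The 12 cDC1 genes listed summed to 593 CPM in WT and 334 CPM in Batf3-/- C7, and to 672 and 373 CPM in C0. Summed over the 6 T and NK cell genes in the files, C7 had 2.73 CPM in WT and 2.42 CPM in Batf3-/-, and over 4 neutrophil genes 0.759 and 0.968 CPM. Over 6 B cell genes it had 45.1 and 66.4 CPM, and over 6 erythroid genes 9.10 and 11.4 CPM. Resting C0 had 53.1 and 68.8 CPM of the B cell genes and 14.5 and 14.4 CPM of the erythroid genes, so neither list was above C0 in C7. The plasmacytoid and monocyte lists were above C0. Over 8 plasmacytoid genes C7 had 333 and 212 CPM and C0 had 191 and 184 CPM, and over 10 monocyte genes C7 had 352 and 232 CPM and C0 had 139 and 176 CPM. In C5 the plasmacytoid list had 255 and 298 CPM and the monocyte list 224 and 271 CPM. In C10 they had 273 and 213 CPM and 215 and 265 CPM, so both lists were above C0 in each cycling Sirpa+ cluster. Some members of the lists rested on few C7 cells. Of the UMIs of Lyz2, a monocyte list gene, 5 cells held 80.4% in WT and 44.4% in Batf3-/-. For Ly6d, a plasmacytoid list gene, 5 cells held 97.2% and 84.4%. The part of these lists in the results was not tested. Of the 7 progenitor genes, Kit stood at 92.4 and 77.9 CPM, Cd34 at 3.03 and 2.90, and the granule genes Mpo, Prtn3, Elane and Ctsg at no more than 0.607 CPM. Kit stood higher in resting C0, at 133 and 137 CPM. The deposited SingleR annotation called 492 of 496 WT and 554 of 558 Batf3-/- C7 cells dendritic cells, and its finer label was DC.8-4-11B- in 445 and 452 of them. The next most frequent finer label was the progenitor label SC.CDP, in 20 WT and 54 Batf3-/- C7 cells.

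C7 held cells of both S and G2M. Of its WT cells, 168 (33.9%) were in S and 328 (66.1%, 61.8 to 70.3%) in G2M, while of its Batf3-/- cells 235 (42.1%) were in S and 323 (57.9%, 53.7 to 62.0%) in G2M. No cell was in G1, and the 95% interval reached up to 0.741% in WT and 0.659% in Batf3-/-. The phase is the larger of the deposited S score and G2M score, and in C7 both scores were high at once. Both exceeded 0.2 in 354 of 496 WT cells (71.4%) and 405 of 558 Batf3-/- cells (72.6%). In C5 this held for 5 of 663 (0.754%) and 6 of 905 (0.663%) cells, and in C10 for 0 cells of either library. The scores lay within 0.1 of each other in 60 WT (12.1%) and 73 Batf3-/- (13.1%) C7 cells, so the phase of these cells rested on a small difference. The share of G2M cells was 66.1% in WT and 57.7% in Batf3-/- when phases were recomputed from the counts, and 63.9% and 55.5% in cells thinned to 5000 UMIs. With 1 library per genotype, genotype and library cannot be told apart for this share. Doublets were 3.57% of WT S and 9.15% of WT G2M cells of C7, and their part in the double scores was not tested.

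**Figure D1:**
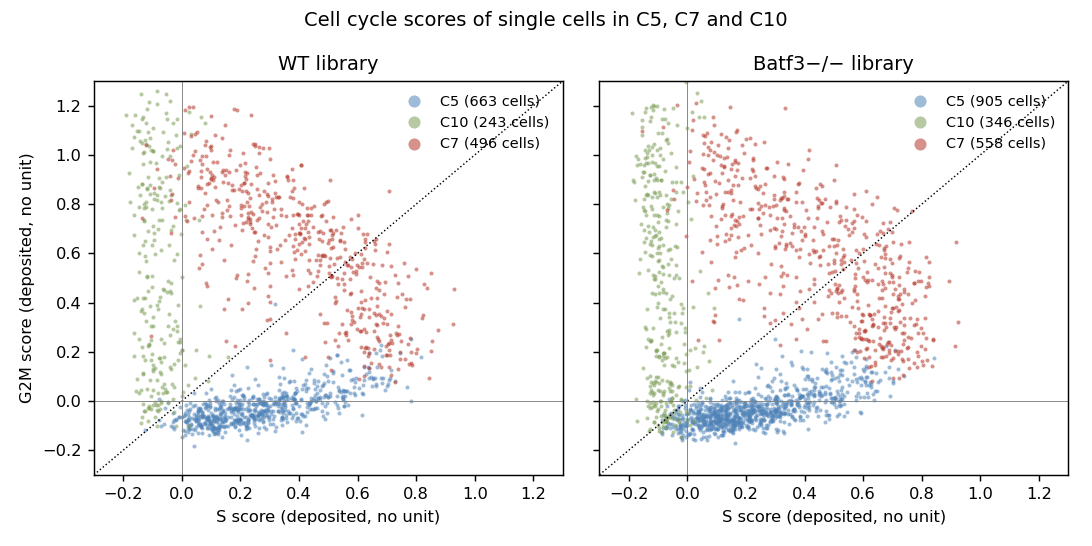
Each point is 1 cell of C5, C7 or C10 with its deposited S score on the horizontal and its G2M score on the vertical axis (no unit), in 1 panel per library. C7 cells fill the upper right, where both scores exceed 0.2 in 71.4% of WT and 72.6% of Batf3-/- C7 cells, while C5 cells lie along the S axis and C10 cells along the G2M axis.

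Genes were compared between clusters on CPM of the summed cells of both libraries. A gene was counted as higher or lower where it differed at least 2-fold in the sum and in the same direction in both libraries, among genes with a mean level of at least 10 CPM. This mean was taken over both clusters compared, so a gene that was low in the other cluster could be tested through its level in C7 alone. Against C5, 346 of 7480 genes (4.63%) were higher in C7 and 49 (0.655%) were lower. Against C10, 512 of 7507 genes (6.82%) were higher and 160 (2.13%) were lower, and against C0, 840 of 7442 (11.3%) were higher and 227 (3.05%) lower. The median log2 ratio over all genes tested was 0.02 against C5, -0.11 against C10 and 0.02 against C0. Genes of the cell cycle were then grouped by the step they serve, and the counts of each group are read against these shares.

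Licensing factors, which load the replicative helicase onto origins, set C7 apart from C10 more than from C5. Against C10 all 11 tested members were higher in C7, with a median log2 ratio of 3.56, whereas against C5 1 of 11 was higher, with a median of 0.16. Mcm5, a subunit of the helicase, stood at 194 CPM in WT and 216 CPM in Batf3-/- C7, at 188 and 182 in C5, at 26.0 and 18.3 in C10 and at 9.86 and 10.9 in C0. The levels of C7 and C5 lay close together and those of C10 and C0 well below them. Mcm10, which joins the helicase when origins fire, was the 1 member higher than in C5, at 49.2 and 42.5 CPM against 20.5 and 16.6 (log2 ratio 1.32, 95% interval 1.13 to 1.52). Replication fork genes behaved likewise, with 29 of 29 higher than in C10 (median 2.97) and 4 of 29 higher than in C5 (median 0.61). The 4 were Clspn, the fork protein that signals to the checkpoint kinase, Cdc45 and Gins3, both parts of the active helicase, and Pola1, the catalytic subunit of the priming polymerase. Lig1, the ligase that joins Okazaki fragments, stood at 157 and 181 CPM in C7, 116 and 108 in C5 and 7.73 and 7.16 in C10. Pcna, the sliding clamp, stood at 205 and 206 CPM in C7, 128 and 108 in C5 and 26.4 and 26.0 in C10. Neither gene passed 2-fold over C5.

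Enzymes of deoxynucleotide supply were higher in C7 than in C10, and most of them were higher than in C5. All 7 tested were higher than in C10 (median log2 ratio 3.71) and 4 of 7 were higher than in C5 (median 1.97). Rrm2, the regulated subunit of ribonucleotide reductase, stood at 417 CPM in WT and 434 CPM in Batf3-/- C7, at 29.9 and 30.4 in C5, at 17.5 and 9.54 in C10 and at 0.963 and 2.47 in C0. C7 lay above every other of these clusters in both libraries, with a log2 ratio of 3.82 (3.69 to 3.95) over C5 and 5.07 (4.75 to 5.41) over C10. Its partner Rrm1 stood at 237 and 238 CPM against 66.3 and 56.5 in C5. Tyms, thymidylate synthase, stood at 319 and 338 CPM against 79.6 and 71.4, and Tk1, thymidine kinase, at 189 and 193 CPM against 36.2 and 27.7. Dut, which removes dUTP, and Dctpp1, which clears modified dCTP, lay within 2-fold of C5.

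Histone genes were also highest in C7, and stood lower in C5 than in C10. All 11 tested were higher in C7 than in C5 (median log2 ratio 4.18), and 8 of 11 were higher than in C10 (median 2.18). Hist1h2ap, an H2A gene of the main histone cluster, stood at 1069 CPM in WT and 968 CPM in Batf3-/- C7, at 16.9 and 11.5 in C5 and at 73.6 and 54.9 in C10. Hist1h1b, a linker histone, stood at 672 and 653 CPM against 14.9 and 15 in C5 and 41.9 and 42.9 in C10. After thinning, Hist1h2ap was seen over both libraries in 56.8% of C7 cells, 4.10% of C10, 1.21% of C5 and 0.946% of C0. Messages of these replication-dependent genes mostly lack the poly(A) tail by which the libraries were primed, and their copies are nearly identical in sequence, so the level of a single copy is uncertain. The variant H2afz, which has an ordinary polyadenylated message, stood at 4360 and 4334 CPM in C7, 1470 and 1426 in C5 and 2655 and 2516 in C10. Hist1h2bc went the other way against C10, with 19.7 and 13.3 CPM in C7 and 149 and 199 CPM in C10 (log2 ratio -3.47, -3.68 to -3.27).

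Genes that copy chromatin and repair DNA were also well above C10. All 8 chromatin genes tested were higher than in C10 (median log2 ratio 3.58) and 1 of 8 was higher than in C5, namely Asf1b, a histone chaperone, at 167 and 165 CPM against 27.2 and 27.5. Of the repair genes, 11 of 11 were higher than in C10 (median 3.17), and 8 of 12 were higher and 1 lower than in C5 (median 1.52). Ung, which removes uracil from DNA and is transcribed at the start of S phase, was the exception, at 27.5 and 34.1 CPM in C7 against 83.1 and 67.7 in C5 (log2 ratio -1.24, -1.40 to -1.09). Within S cells alone the log2 ratio was 0.11 (-0.05 to 0.27).

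Mitotic genes showed the mirror image and set C7 apart from C5. All 18 tested mitotic cyclins and kinases were higher in C7 than in C5 (median log2 ratio 3.80), as were 20 of 20 centromere and kinetochore genes (3.11), 22 of 22 spindle genes (3.64) and 8 of 8 genes of the chromosomal passenger complex and cytokinesis (3.86). Condensation and cohesion genes were higher in 13 of 16 (2.84). Against C10 most of these groups split. Of 19 mitotic cyclins and kinases 5 were higher and 5 lower (median -0.19), of 22 spindle genes 4 were higher and 3 lower (-0.29), and of 8 passenger genes 0 were higher and 1 lower (-0.02). The kinetochore group had 8 higher and 3 lower of 20 (0.64), and condensation and cohesion had 7 higher and 0 lower of 16 (0.91).

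Single genes differed by the step they serve. Ccna2, the cyclin of S and G2, stood at 197 CPM in WT and 195 CPM in Batf3-/- C7, at 2.99 and 4.12 in C5 and at 159 and 147 in C10. Ccnb1, the cyclin that drives entry into mitosis, stood at 68.6 and 61.1 CPM in C7, 1.85 and 2.34 in C5 and 250 and 232 in C10. C7 thus had somewhat more Ccna2 than C10 (log2 ratio 0.37, 0.26 to 0.47) and 3.72-fold less Ccnb1 (log2 ratio -1.89, -2.01 to -1.78). Cdc20, which activates the anaphase-promoting complex, stood at 88.5 and 80.2 CPM in C7 and 395 and 331 in C10 (log2 ratio -2.09, -2.19 to -1.99). Cenpa, the centromeric histone H3 that is transcribed in G2, stood at 245 and 213 CPM in C7 and 728 and 657 in C10. Cenpf, an outer kinetochore protein, stood at 276 and 231 CPM in C7 and 735 and 605 in C10. Among the genes higher than in C10, Spc24, of the kinetochore complex that holds microtubules, stood at 405 and 407 CPM against 118 and 99.7. Esco2, which acetylates cohesin during replication, stood at 196 and 195 CPM against 11.4 and 9.54 in C10 and 6.26 and 6.84 in C5. Fbxo5, the inhibitor of the anaphase-promoting complex, stood at 161 and 154 CPM against 26.0 and 16.4 in C10 and 9.25 and 11.8 in C5. These genes were picked after their values were seen, and most members of the mitotic groups lay within 2-fold of C10.

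**Figure D2:**
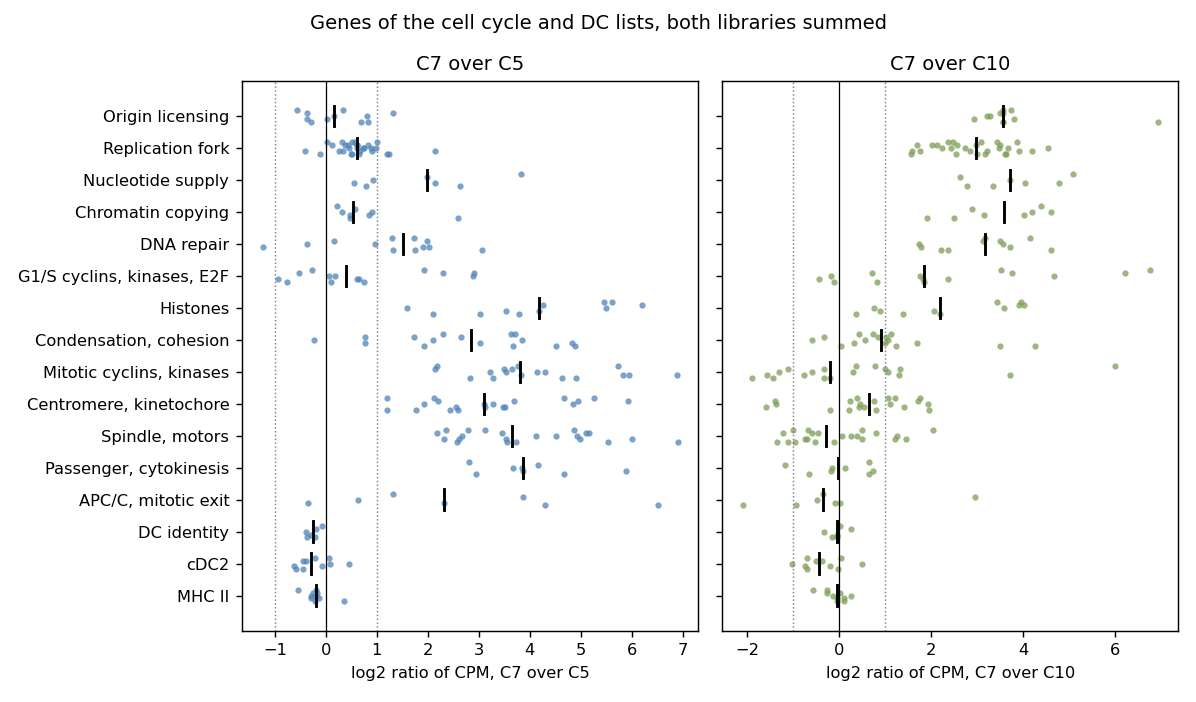
Each point is 1 tested gene of a list, plotted by its log2 ratio of CPM in C7 over C5 (left) and over C10 (right), both libraries summed, with black bars at the list medians and dotted lines at 2-fold. Licensing genes lie near 0 against C5 (median 0.16) and far above 0 against C10 (3.56), while mitotic cyclins and kinases lie far above 0 against C5 (3.80) and around 0 against C10 (-0.19).

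Regulators of entry into S phase were mixed. Of 14 cyclins, kinases and E2F factors, 4 were higher in C7 than in C5 and 9 were higher than in C10, with none lower in either. Ccne1, cyclin E, which starts S phase, stood at 40.2 CPM in WT and 52.9 CPM in Batf3-/- C7, 9.40 and 9.75 in C5 and 0.407 and 0.795 in C10. E2f8, a repressor that ends the E2F wave, stood at 83.3 and 81.8 CPM, against 12.8 and 9.75 in C5 and 6.51 and 5.83 in C10. The activator E2f1 differed little from C5, at 51.0 and 51.1 CPM against 66.2 and 59.4. D-type cyclins, which link growth signals to the cycle, did not share this order. Ccnd1 stood at 758 and 848 CPM in C7, below the 1280 and 1438 of C5 and the 1301 and 1342 of resting C0, and Ccnd2 stood at 20.3 and 26.9 CPM against 122 and 98.1 in C0 (log2 ratio -2.20, -2.36 to -2.04). Among brakes of the cycle, 5 of 11 were higher than in C5. The inhibitors of D-cyclin kinases Cdkn2c and Cdkn2d were 2 of them, with Cdkn2d at 168 and 147 CPM in C7, 14.8 and 12.2 in C5 and 93.6 and 62.6 in C10. Btg1, an antiproliferative gene of resting cells, stood at 493 and 461 CPM in C7 against 1104 and 1031 in C0.

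Several leading genes lay outside these groups. Mxd3, a MAX partner, had the highest ratio over C5, at 124 CPM in WT and 106 CPM in Batf3-/- C7 against 0.997 and 0.562 in C5 (log2 ratio 7.28, 6.50 to 8.19). It stood at 29.3 and 23.1 CPM in C10. Its relative Mxd4, typical of cells that have left the cycle, stood at 11.8 and 10.9 CPM in C7 and 85.4 and 96.6 CPM in C0 (log2 ratio -3.01). Pclaf, which binds PCNA, stood at 1120 and 1145 CPM against 2.25 and 3.38 in C0. Slfn5, an interferon-induced Schlafen gene, had the lowest ratio over C0, at 7.28 and 10.5 CPM against 107 and 93.2 (log2 ratio -3.46, -3.72 to -3.21). Among the lowest against C10 were Ifi27l2a, an interferon-induced gene, at 270 and 225 CPM against 1175 and 1022, and Cd9, a tetraspanin, at 162 and 159 CPM against 559 and 518. Lowest against C5 were Sox4, a transcription factor of developing lymphoid and dendritic cells, at 52.0 and 65.6 CPM against 130 and 174, and Aldoa, a glycolytic enzyme, at 39.1 and 46.0 CPM against 104 and 116.

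Growth genes, in contrast, separated C7 from C5 little. Of 13 MYC-linked and nucleolar genes, none was higher than in C5 and 1 was lower (median log2 ratio -0.05). The lower one, Srm, makes spermidine, and stood at 23.5 CPM in WT and 23.4 CPM in Batf3-/- C7 against 54 and 46.1 in C5. Against C0, 5 of 13 were higher (median 0.86), with Ran, a nuclear transport GTPase, at 1019 and 966 CPM against 208 and 207. Myc itself stood at 12.9 and 11.6 CPM in C7 and 14.1 and 9.37 CPM in C0. Of 4 tested targets of p53 in the comparison with C5, Cdkn1a, the p21 inhibitor, was higher, at 25.2 and 26.3 CPM against 9.11 and 12.0, while Mdm2, Bax and Ccng1 lay within 0.2 of 0 on the log2 scale.

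The same contrasts were made within each phase. When S cells of C7 were set against S cells of C5, 359 of 7460 genes (4.81%) were higher and 34 (0.456%) lower. All 15 tested mitotic cyclins and kinases were higher (median log2 ratio 3.14), as were 11 of 11 histones (2.95), 7 of 7 genes of nucleotide supply (1.97) and 16 of 29 fork genes (1.09). Of the groups close to C5 over all cells, 4 of 11 licensing factors (0.76) and 5 of 8 chromatin genes (1.16) were higher among S cells. When G2M cells of C7 were set against G2M cells of C10, 413 of 7444 genes (5.55%) were higher and 147 (1.97%) lower. All 10 tested licensing factors (median 2.90), 29 of 29 fork genes (2.33) and 7 of 7 nucleotide genes (3.18) were higher, and of 18 mitotic cyclins and kinases 5 were higher and 3 lower (-0.03). S cells of C7 thus had more of the mitotic transcripts than those of C5, and its G2M cells more of the replication transcripts than those of C10. The deposited scores already held this difference. The median G2M score of S cells was 0.338 and 0.342 in C7 and -0.034 and -0.041 in C5. The median S score of G2M cells was 0.262 and 0.281 in C7 and -0.086 and -0.092 in C10. S cells were not matched for their S score, with medians of 0.655 and 0.673 in C7 and 0.247 and 0.220 in C5. In cells of both libraries thinned to 1000 UMIs, Rrm2 and Ube2c, the ubiquitin-conjugating enzyme that works with the anaphase-promoting complex, were seen together in 8.45% of C7 cells (6.84 to 10.3%), in 1.02% of C10, in 0.0638% of C5 and in 0.0163% of C0.

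The cells of C7 were also placed in a series by their scores. They were ordered in each library by the G2M score minus the S score and cut into 4 bins of 124 cells in WT and 139 or 140 in Batf3-/-. No cell of the first bin and every cell of the last 2 bins was in G2M. Genes in neither phase list had no direct part in this order, and their values are given from the first bin to the last. They can still move together with listed genes, so their course along the bins is not separate evidence for the order. The cyclin E gene Ccne1 stood at 69.7, 70.1, 20.5 and 4.60 CPM in WT and at 73.9, 91.9, 39.6 and 8.95 CPM in Batf3-/-. E2f1 stood at 124, 62.3, 21.7 and 3.45 CPM in WT and at 123, 62.7, 18.2 and 8.01 CPM in Batf3-/-. Both regulators of S phase entry were highest early and nearly gone at the end, in either library.

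Histone genes were lowest in the first bin, and differed in where they were highest. Hist1h2ap stood at 395, 1319, 1376 and 1134 CPM in WT and at 216, 1031, 1366 and 1179 CPM in Batf3-/-, and Hist1h1b at 335, 900, 811 and 621 CPM in WT and 235, 862, 828 and 645 CPM in Batf3-/-. Hist1h2ae, another H2A gene, stood at 186, 903, 1162 and 1177 CPM in WT and at 144, 787, 1155 and 1336 CPM in Batf3-/-, highest in the last bin, as was Hist1h4d in both libraries. Ccna2 increased over all 4 bins, with 128, 190, 196 and 266 CPM in WT and 114, 162, 201 and 293 CPM in Batf3-/-. Late genes were highest at the end of the series. Plk1, a kinase of mitotic entry, stood at 14.3, 45.3, 77.0 and 131 CPM in WT and at 13.1, 34.0, 63.0 and 149 CPM in Batf3-/-, and Ccnb1 at 16.9, 27.8, 61.4 and 160 CPM in WT and 10.5, 18.7, 55.5 and 154 CPM in Batf3-/-. Even in the last bin Ccnb1 lay below the 250 and 232 CPM of C10. The maintenance methyltransferase Dnmt1 stood at 177, 166, 138 and 60.4 CPM in WT and 166, 174, 135 and 66.0 CPM in Batf3-/-. Sirpa showed no such series, with 165, 196, 166 and 170 CPM in WT and 179, 164, 177 and 172 CPM in Batf3-/-. Median UMIs per cell increased along the bins, from 12092 to 14522.5 in WT and from 13711 to 15277 in Batf3-/-, and their part in the series was not tested.

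**Figure D3:**
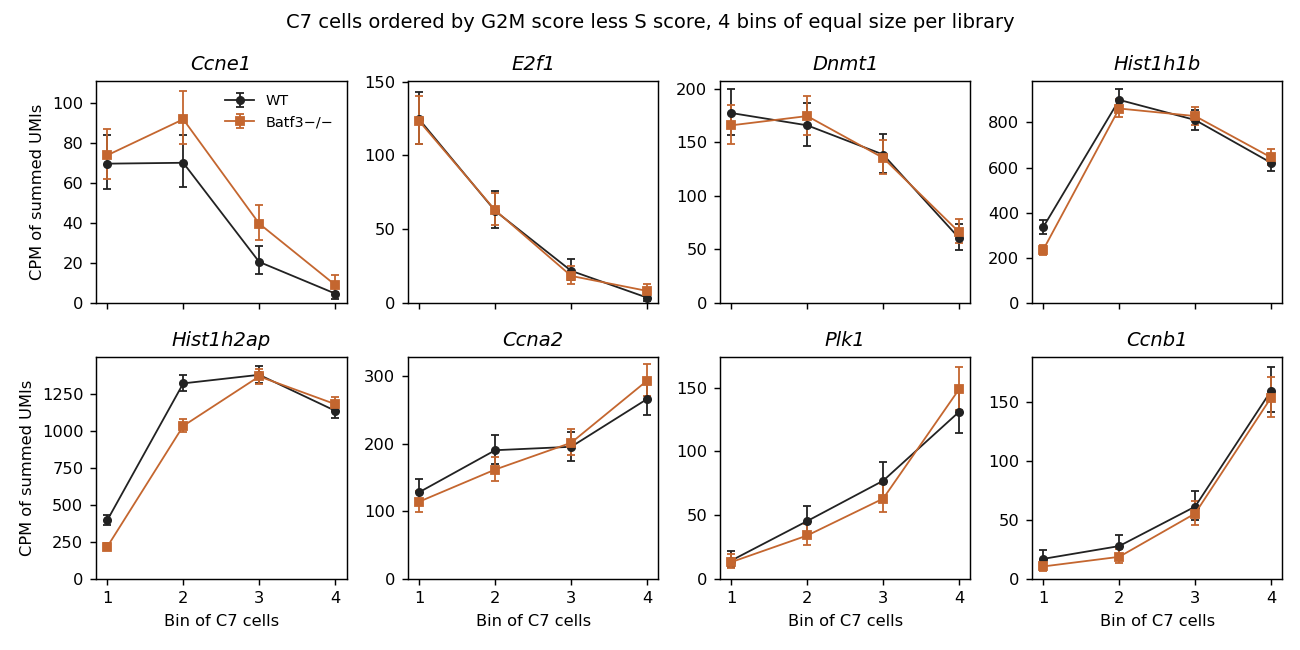
Each panel is 1 gene of neither phase list, with CPM on the vertical axis and the 4 bins of C7 cells, ordered by G2M score minus S score, on the horizontal axis. Lines are the 2 libraries and bars their exact Poisson 95% intervals. Ccne1 and E2f1 are highest in the early bins, the 2 plotted histone genes in the middle and Plk1 and Ccnb1 in the last bin, where Ccnb1 stands at 160 CPM in WT and 154 CPM in Batf3-/-.

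In the direct comparison of G2M with S cells of C7, 153 of 7443 genes (2.06%) were higher in G2M and 212 (2.85%) were lower. Genes of the phase lists chose the phases, and their ratios follow from that choice. Origin licensing factors, some of which are on the S list, were lower in 9 of 11 (median log2 ratio -1.53), while histones, none of which is on a list, were higher in 7 of 11 (1.29). Spindle genes, some of which are on the G2M list, were higher in 15 of 22 (1.25). Of 5 monocyte and macrophage genes tested, 3 were also higher in G2M and none lower (1.01). Doublets were 9.15% of G2M and 3.57% of S cells in WT C7, and 8.05% and 2.98% in Batf3-/- C7. Their part in this comparison was not tested.

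Promoters of the genes concerned were read for the motifs that mark the 2 waves of transcription. Windows ran from 250 bases before to 50 bases after the start, were those of RefSeq on GRCm38.p6, and were found by symbol for 12722 of 17751 genes. The E2F letters searched were TTTCCCGC, TTTGGCGC, TTTCGCGC and TTTGCCGC, the CHR letters TTTGAA and TTCGAA, and the third motif CCAAT, each on both strands. The 200 bases before the start are shown for 4 genes, with motif letters in capitals, because each stands for a group above. Mcm5 stands for licensing (chr8:75109309-75109508, plus strand), Top2a is the marker of C7 (chr11:99024190-99024389, minus strand), Ube2c stands for mitotic genes shared with C10 (chr2:164769729-164769928, plus strand) and Cdc20 for those lower than in C10 (chr4:118437344-118437543, minus strand).
Mcm5: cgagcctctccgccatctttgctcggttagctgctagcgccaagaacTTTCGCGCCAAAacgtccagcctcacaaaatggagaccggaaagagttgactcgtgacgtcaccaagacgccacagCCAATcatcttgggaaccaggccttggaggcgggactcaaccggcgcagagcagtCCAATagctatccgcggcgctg
Top2a: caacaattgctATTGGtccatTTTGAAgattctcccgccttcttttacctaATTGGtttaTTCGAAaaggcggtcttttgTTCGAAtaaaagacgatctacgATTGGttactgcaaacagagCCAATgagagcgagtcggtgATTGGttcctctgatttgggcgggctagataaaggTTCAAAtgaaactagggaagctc
Ube2c: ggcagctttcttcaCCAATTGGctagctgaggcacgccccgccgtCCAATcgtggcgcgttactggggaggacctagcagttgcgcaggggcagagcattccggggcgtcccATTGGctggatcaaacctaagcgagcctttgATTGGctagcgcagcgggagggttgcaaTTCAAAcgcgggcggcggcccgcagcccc
Cdc20: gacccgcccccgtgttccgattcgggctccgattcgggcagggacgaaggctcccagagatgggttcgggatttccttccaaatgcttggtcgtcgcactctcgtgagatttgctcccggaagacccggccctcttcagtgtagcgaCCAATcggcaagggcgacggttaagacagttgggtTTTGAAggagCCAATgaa
Matches are given here for the 200 bases shown and not for the whole window. In Mcm5 2 overlapping E2F matches on opposite strands began 153 and 149 bases before the start, and no CHR letters were present. Top2a had 4 CHR matches, the nearest 23 bases before the start, and 5 CCAAT boxes. Ube2c had 1 CHR match at 29 bases and 5 CCAAT matches, of which those at 186 and 183 bases overlap as the 2 strands of CCAATTGG. Cdc20 had 1 CHR match at 18 bases and 2 CCAAT boxes. A match is a string of letters and does not show that a factor binds.

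Over gene groups the motifs followed the same division. A gene was counted if any of its windows held the letters. Of all 12722 genes with a window, 4.13% held E2F letters, 17.6% held CHR letters and 7.23% held CHR and CCAAT together. Among the 6009 with a window that were tested against C5, from which the genes higher than in C5 come, the shares were 5.61%, 16.9% and 7.34%. Among the 265 genes with a window that were higher in C7 than in C5, these shares were 9.81%, 49.1% and 34.7%. Among the 399 that were higher than in C10, they were 19.3%, 20.8% and 11.0%. Genes that were lower in C7 than in C10 held E2F letters in 0.794% of 126 and CHR letters in 31.0%. E2F letters were thus most frequent among genes that C7 had above C10, and CHR letters among those it had above C5. By role, 7 of 10 licensing genes held E2F letters and 2 of 10 CHR letters, whereas 1 of 18 spindle genes held E2F letters and 14 of 18 CHR letters. Of 16 kinetochore genes 11 held CHR letters, and of 14 mitotic cyclins and kinases 9 did. None of the 6 nucleotide genes with a window held either. MHC class II genes, whose promoters carry a CCAAT element called the Y box, held CCAAT letters in 7 of 7, and CHR letters in none. Of all genes 42.3% held CCAAT, and whether the matches are the Y box was not tested. No histone gene had a window by symbol.

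**Figure D4:**
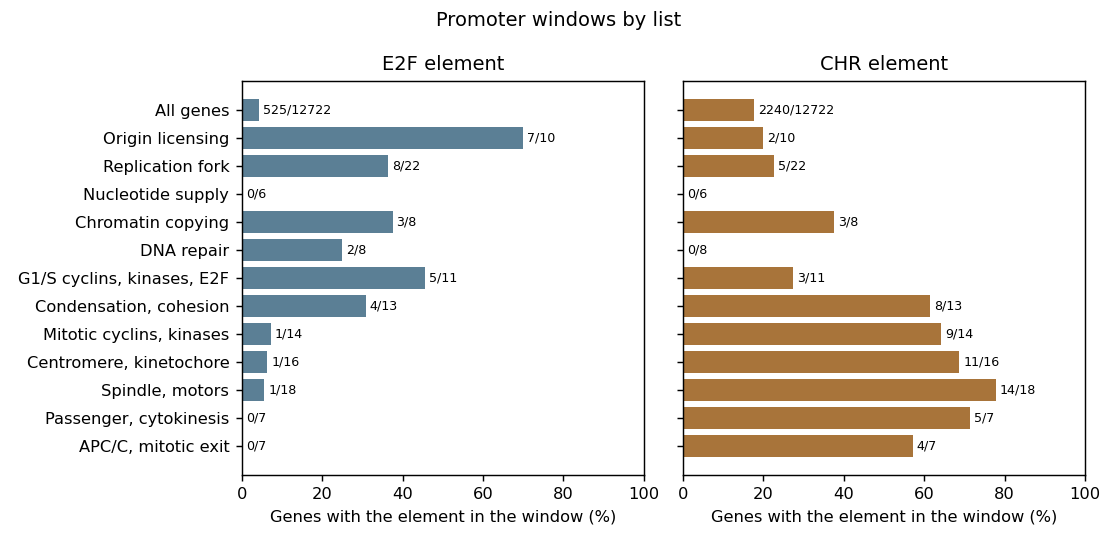
Bars give the percent of genes with E2F letters (left) or CHR letters (right) in at least 1 promoter window (250 bases before to 50 after the start). They cover all genes with a window and each role list, with counts beside the bars. E2F letters are in 7 of 10 licensing genes and 1 of 18 spindle genes, and CHR letters in 2 of 10 and 14 of 18.

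Genes of dendritic cell identity and MHC class II stood in C7 near the levels of its neighbours. The 6 identity genes were Zbtb46, Flt3, Itgax, H2-Aa, Cd74 and Ciita. All cells had been sorted for CD11c, the product of Itgax, and for MHCII, so the presence of these transcripts was partly set by the sort. Of the 6 genes of dendritic cell identity, none passed 2-fold against C5 (median log2 ratio -0.25), C10 (-0.04) or C0 (-0.31). Cd74, the invariant chain that guides MHC class II, stood at 14538 CPM in WT and 15214 CPM in Batf3-/- C7, 16838 and 17729 in C5, 14936 and 15621 in C10 and 18594 and 17837 in C0. The 10 MHC class II genes summed to 37306 and 38588 CPM in C7 and to 48628 and 46092 in C0, and 1 of them was lower than in C0, namely H2-Ob, which modulates peptide loading, at 109 and 78.2 CPM against 239 and 200. C7 lay somewhat below C0 for most of these genes, within 2-fold.

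Genes of cDC2 were mixed against resting cells. Against C0, 2 of 10 were lower and 1 higher, with a median log2 ratio of -0.79. Cd4, a co-receptor found on splenic cDC2, stood at 28.8 CPM in WT and 22.1 CPM in Batf3-/- C7, 42.3 and 36.7 in C5, 25.6 and 30.7 in C10 and 81.2 and 75 in C0. Esam, an adhesion molecule of Notch-dependent cDC2, stood at 20.9 and 18.8 CPM in C7 and 43.5 and 42.8 in C0. Clec12a, a lectin receptor, was higher, at 51.7 and 42.2 CPM in C7 against 8.25 and 9.78 in C0, and stood at 31.5 and 35.5 CPM in C5. Clec12a lay under 10 CPM in C0 and met the filter against C0 only through C7. Against C5 none of the 10 passed 2-fold in either direction (median -0.30), and against C10 only Itgam, the CD11b chain, did, at 30.3 and 32 CPM against 63.5 and 63.3. The published cDC2a signature without its cell cycle genes gave a like result, with 0 of 26 tested genes apart from C5 (median 0.02) and 10 of 28 lower than C0 (median -0.52). The signature was defined elsewhere, and its score in these clusters was known when it was listed. Ccr6, a chemokine receptor of this signature, stood at 23.1 and 25.9 CPM in C7 and 44.7 and 60.6 in C0.

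C6, the cycling cDC1 cluster, had 13 of 797 WT cells (1.63%) and 189 of 727 Batf3-/- cells (26.0%) in G1. Against C6, where 808 of 7364 genes (11%) were higher in C7 and 301 (4.09%) lower, the lineage genes were split. Of 10 cDC2 genes 8 were higher and 1 lower (median log2 ratio 2.65), and of 11 cDC1 genes 9 were lower (median -4.65). Against C0, 2 of 6 tested cDC1 genes were higher and none lower, Cd8a at 30.8 CPM in WT and 16.6 CPM in Batf3-/- C7 against 6.97 and 2.19, and Irf8. Cd8a lay under 10 CPM in C0 and met the filter only through C7, so its count as higher followed in part from the filter. Irf8, a transcription factor of cDC1, stood at 21.3 and 15.4 CPM in C0, at 51.3 CPM in WT and 43.9 CPM in Batf3-/- C7 and at 1895 CPM in WT and 941 CPM in Batf3-/- C6. Against C6, the 6 genes of dendritic cell identity had a median log2 ratio of 0.02.

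A list of 6 genes was picked from those the study describes in its Sox4+ cells, which are among these same cells, and it is no separate evidence for a direction. Of its 4 tested members 2 were lower in C7 than in C5, Sox4 and Lag3, an inhibitory receptor gene, which stood at 16.2 CPM in WT and 15.6 CPM in Batf3-/- C7 against 32 and 33.7. Against C10, 1 of 4 tested was higher and none lower (median log2 ratio 0.29). None of the 3 tested against C0 passed 2-fold.

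Maturation genes were mixed. Of 10 maturation genes 4 were higher and 1 lower than in C0, with Ccr7, the receptor for migration to lymph nodes, at 62.4 CPM in WT and 56.3 CPM in Batf3-/- C7 against 14 and 17.4. Against C5 none was higher and 1 was lower, Il4i1, an amino acid oxidase, at 47.5 and 92.8 CPM against 100 and 197. Of 10 listed monocyte and macrophage genes, 5 met the filter against C0, of which 3 were higher and 1 was lower. The lower one was Adgre1, the F4/80 antigen, at 40.8 and 39.0 CPM against 95.8 and 117 in C0. Lyz2, lysozyme, stood at 214 CPM in WT and 89.1 CPM in Batf3-/- C7 against 19 and 16.8. In WT, 5 of the 98 C7 cells with Lyz2 held 80.4% of its UMIs, and in Batf3-/- 5 of 114 held 44.4%. The other higher genes were Ccr2, a chemokine receptor of monocytes, at 26.1 and 22.9 CPM against 1.70 and 2.51, and Cx3cr1, the fractalkine receptor, at 21.7 and 34.1 CPM against 3.44 and 5.26. Ccr2 and Cx3cr1 lay under 10 CPM in C0 and met the filter only through C7, so their count as higher followed in part from the filter. Of 5 monocyte and macrophage genes tested against C5, none passed 2-fold (median log2 ratio 0.05), nor did any of 5 against C10 (0.08). Genes that respond to tissue dissociation, such as Jun and Fos, summed to 4306 and 4528 CPM in C7 and 4668 and 4850 in C5. In C10 they summed to 3042 and 3304 CPM and in C0 to 5127 and 5064. Over all cells none passed 2-fold against C5, C10 or C0. Among G2M cells 2 of 6 were higher in C7 than in C10 and none lower (median log2 ratio 0.67).

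The antibody tags had no part in the clustering, but the files do not name their rows. Only 1 of 11 rows could be tied to an antibody, CD8A, by the correlation of its counts with Cd8a transcripts over all cells. Its median was 39 tag counts per cell in C7 of WT and 39 in C7 of Batf3-/-, against 40 and 42 in C5, 40 and 40 in C10 and 41 and 41 in C0. The resting Sox4+ cluster C3 had medians of 57 and 55, and the cDC1 cluster C4 of 122 and 106. C7 thus lay near C0 for CD8A, and below C3 and C4.

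Each cell of the cycling clusters was also compared with the 10 non-cycling clusters and assigned to the cluster whose mean profile it resembled most. The comparison used 17340 genes outside the cell cycle, mitochondrial and ribosomal lists. Leaving out those lists removed 411 genes, while 1038 genes that differed 2-fold from C0 in C5, C7 or C10 stayed in. Of the resting cells themselves, 87.6% were assigned to their own cluster when profiles were made from other cells. WT C7 cells were nearest to C0 in 56.0% (51.6 to 60.5%) and to C3, the Sox4+ cluster, in 29% (25.1 to 33.2%). Batf3-/- C7 cells were nearest to C0 in 41.4% (37.3 to 45.6%) and to C3 in 40.9% (36.7 to 45.1%). The shares differed by phase. For C0 and C3 they were 53.6% and 34.5% in S and 57.3% and 26.2% in G2M cells of WT C7. In Batf3-/- C7 they were 34.0% and 50.6% in S and 46.7% and 33.7% in G2M cells. The cDC1 cluster C4 was nearest for 0 of 496 and 3 of 558 cells. In C5, 69.4% and 55.7% were nearest to C0, and in C10 80.2% and 73.7% were. Of all C6 cells, those in G1 included, 97.2% of WT and 71.5% of Batf3-/- were nearest to C4. A further 23.0% of Batf3-/- C6 cells were nearest to C2, a Sirpa+ cluster.

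The share nearest to C3 depended on the genes used and names no lineage. When 1038 more genes that differed 2-fold from C0 in C5, C7 or C10 were left out, a setting chosen after seeing the data, it was 11.1% in WT and 17% in Batf3-/-, and C0 had 72.8% and 62.5%. The C7 cells nearest to C3 had 93.3 CPM of Sox4 in WT and 110 CPM in Batf3-/-, against 533 and 574 in C3 itself, and 13.5 and 4.30 CPM of the lectin gene Cd209d against 327 and 253. These genes were among those that made the assignment, so a difference between the cells nearest to C3 and to C0 follows from it. The cells nearest to C3 stood well below C3 in both genes, although their Sox4 was above the 28.7 and 39.6 CPM of the C7 cells nearest to C0. Crip1, a LIM protein gene, stood near C3, at 523 and 546 CPM against 456 and 570 in C3 and 234 and 258 in the C7 cells nearest to C0. Of the resting reference cells, C3 made up 7.69% in WT and 17.5% in Batf3-/-.

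Between Batf3-/- and WT C7, 9 of 7453 genes (0.121%) were at least 2-fold higher and 10 (0.134%) at least 2-fold lower, and 90% of all genes lay between -0.34 and 0.29 on the log2 scale. No gene of a cell cycle group passed 2-fold between the libraries. The S list had a median log2 ratio of 0.11 and the G2M list one of -0.11, beside the higher share of S cells in the Batf3-/- library. With 1 library per genotype these ratios have no replicate check.

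Besides Batf3, with 1008 UMIs in WT and 5 in Batf3-/- C7 (log2 ratio -7.98), the lower genes included Prss30, a serine protease, at 62.4 CPM in WT and 27.6 CPM in Batf3-/- (log2 ratio -1.18, -1.42 to -0.94). It was spread over 245 WT cells, and its ratio was -0.65 in C5, -0.65 in C10 and -0.69 in C0. Ear2, a ribonuclease, stood at 40.7 and 14 CPM, with ratios of -1.11 in C5, -1.44 in C10 and -1.36 in C0, and Hic1, a transcriptional repressor, at 16.7 and 4.96 CPM. These 3 genes were lower in Batf3-/- cells of all 4 clusters. Others rested on few cells. Ly6d, a surface protein of lymphoid and plasmacytoid cells, stood at 59.9 and 5.45 CPM, with 97.2% of its WT UMIs in 5 cells. Siglech, a receptor of plasmacytoid dendritic cells, stood at 17.4 and 5.45 CPM with 75.7% in 5 cells, Ly6c2, a monocyte marker, at 20.6 and 1.69 CPM with 77.2% in 5 cells, and Lyz2 at 214 and 89.1 CPM with 80.4%. Summed over 8 plasmacytoid genes, C7 had 333 CPM in WT and 212 in Batf3-/-, and over 10 monocyte genes 352 and 232. Ly6a, with ratios of -0.34 in C5 and 0.72 in C10, and Il7r completed the lower genes.

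Higher in Batf3-/- C7 were 3 interferon-inducible genes of the Ifi200 family, which sense DNA or bind chromatin. Ifi204 stood at 3.79 CPM in WT and 30.6 CPM in Batf3-/- (log2 ratio 3.01, 2.42 to 3.67) and was seen in 20 and 179 cells. Its ratio was 2.94 in C5, 3.95 in C10 and 2.57 in C0. Ifi211 stood at 2.58 and 26.4 CPM and Ifi205 at 4.10 and 16.6 CPM. All 3 genes were thus far higher in the Batf3-/- library, and for Ifi204 this held in each of the 4 clusters. They lie near one another on chromosome 1 (GRCm38), Ifi204 at chr1:173747293-173766943, Ifi211 at chr1:173896345-173913046 and Ifi205 at chr1:174011998-174031810, with Pea15a, at 14 and 28.8 CPM, at chr1:172196728-172206804. Ifi211 lies within the span of Mndal, another gene of the family, so reads of the pair may be hard to tell apart. Batf3 lies at chr1:191097847-191108945, and Ifi204, Ifi211, Ifi205 and Pea15a begin 17.1 to 18.9 Mb from it. Of the 18 genes other than Batf3 that passed 2-fold, 4 lie on chromosome 1 and all 4 are these, while chromosome 1 holds 427 (5.73%) of the 7449 tested genes with a known chromosome. The origin of the chromosome around Batf3 in the Batf3-/- mice was not tested. The other higher genes were Anxa3, an annexin, at 37.2 and 74.8 CPM, Hpgd, which breaks down prostaglandins, at 9.86 and 23.2 CPM, and 3 that rested on few cells. Cd63, a tetraspanin, had 51% of its Batf3-/- UMIs in 5 cells, 2610528A11Rik 61.9% and Cxcl10, an interferon-induced chemokine, 59.8%. Cxcl10 stood at 9.56 and 39.7 CPM in C7, and its ratio was 1.03 in C5, 0.37 in C0 and -3.16 in C10, the opposite direction.

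**Figure D5:**
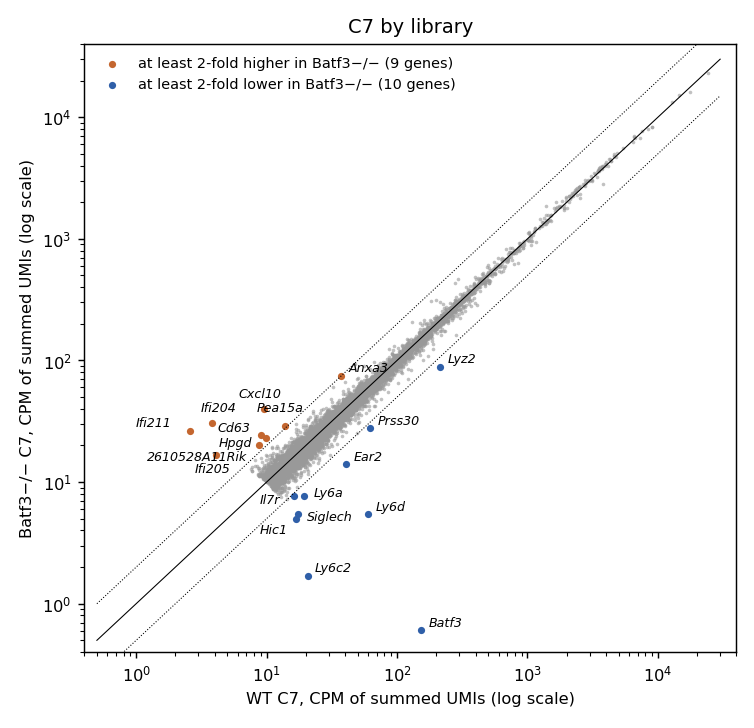
Each point is 1 tested gene by its CPM in WT C7 on the horizontal and in Batf3-/- C7 on the vertical axis, both log scales, with dotted lines at 2-fold. Nearly all genes lie along the diagonal, with 9 named genes above and 10 named genes, Batf3 among them, below the dotted lines.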

How the data were processed

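Per the labels and the study's methods, cells were loaded on the 10x Chromium (v3) with TotalSeq-A antibodies, and the authors used Cell Ranger 3.0.2 on GRCm38 (mm10) and Seurat 3.0.5. The deposited tables held raw UMI counts per gene and tag counts per cell, which the authors made from genes in at least 3 cells and cells with 500 to 5000 genes, at most 20% mitochondrial and 50% ribosomal. Clusters (resolution 0.5), SingleR labels, phases and the S and G2M score of each cell were taken as deposited by the authors. The authors' deposited shares of mitochondrial and ribosomal UMIs, given as a fraction, and tag values, given as a natural log (centered log ratio), were normalized before deposit, and the tag values were an alternative only. The deposited normalized gene tables were not used. All 24343 cells had the UMI total, gene number and tag total that the deposited cell table gave, over 17751 genes and 11 tag rows, and 0 per-sample columns were left unmapped.

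UMIs were summed per cluster and library (C7 6590623 UMIs in WT and 8262852 in Batf3-/-). Levels are CPM with exact Poisson 95% intervals, shares have Clopper-Pearson intervals and log2 ratios have exact binomial intervals. These cover counting error only, and no test between groups was possible with 1 library per genotype. Genes needed a mean level of at least 10 CPM and 20 UMIs in all. Doublets were called by Scrublet (scanpy 1.11.5, 10% expected) and kept. Detection was compared in cells thinned to 1000 UMIs. Nearest profiles were multinomial likelihoods of each cell. Other tools were Python 3.11.15, numpy 2.4.6, pandas 2.3.3, scipy 1.17.1 and matplotlib 3.10.9. The ratio counts and the intervals of ratios and shares were tested on simulated data, and the other steps were not. Named were the 8 genes with the highest and the 8 with the lowest ratio in each comparison, at a mean level of at least 50 CPM, of which some are described, the 3 highest of each list, and marker genes, and any other gene was chosen after its values were seen. Cell cycle lists, markers and members were chosen with earlier results of these data known. Alternatives changed the filter, level, denominator, doublets, phases, thinning, window and genes compared.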

Additional observations from a re-analysis of the deposited data

How the results depend on the processing

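No paired analysis was possible because each genotype had 1 library, so no replicate of a genotype could be left out. Cluster contrasts made in 1 library alone stayed near the counts over both, with 347 genes higher and 70 lower than in C5 in WT, and 363 and 47 in Batf3-/-. Of the values that answer a comparison, 51 under an alternative stayed near the reported value and 39 moved. With a mean level of at least 50 CPM, the genes higher and lower in C7 were 131 and 6 against C5, 152 and 41 against C10 and 298 and 59 against C0, and with no filter other than 20 UMIs they were 681 and 331, 1028 and 520, and 1695 and 844. Fewer or more genes were tested under these settings by construction. Between genotypes, C7 cells in S only gave 24 genes higher and 18 lower in Batf3-/-, and a mean level of at least 50 CPM gave 1 and 2. The share of WT cells in C7 was 5.72% without the cDC1 clusters, against 4.93% of Batf3-/- cells, and the order of the libraries then reversed. The S list in C7, at 4739 CPM, was at 4943 as a mean over cells, 4912 without doublets and 6269 with mitochondrial and ribosomal genes out of the denominator, and the G2M list, at 15150 CPM, was at 15241, 15553 and 20041. Detection of Mki67 in C7 was 71.5% in cells thinned to 2000 UMIs, 91.3% at 5000 and 98.8% without thinning, and that of Top2a was 77.8%, 95.2% and 99.4%. With the stricter gene set, chosen after seeing the data, the cells nearest to C0 and C3 were 72.8% and 11.1% in WT and 62.5% and 17% in Batf3-/-. In the shorter promoter window of 150 bases, E2F, CHR, and CHR with CCAAT letters were in 5.66%, 38.9% and 24.2% of genes higher than in C5. They were in 12.3%, 12.3% and 4.76% of those higher than in C10, against 2.26%, 7.28% and 2.08% of all genes. Of the genes with a window tested against C5, 3.03%, 7.17% and 2.55% held them. Depth limits genes near 10 CPM most in the smallest sums, S cells of WT C7 (2116748 UMIs) and G2M cells of WT C10 (2263615 UMIs).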

Other observations

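Several genes under 2-fold in C7 differed between the libraries in the same direction in C7, C5, C10 and C0, and each passed 2-fold in 1 of the other clusters. Mndal, another member of the Ifi200 family (chr1:173849126-173942491), stood at 182 CPM in WT and 307 CPM in Batf3-/- C7, with a log2 ratio of 0.75 in C7, 0.75 in C5, 0.76 in C10 and 1.10 in C0. Efhd2, a calcium-binding protein, stood at 281 CPM in WT and 161 CPM in Batf3-/- C7, with ratios of -0.81, -0.92, -0.70 and -1.22. Aif1, an actin-binding protein of myeloid cells, stood at 39.9 and 66.8 CPM, with ratios of 0.74, 0.83, 1.72 and 0.69. Each value compares 1 library with 1 library.

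Of the cells in C5, C7 and C10 together, C7 made up 35.4% (32.9 to 37.9%) of 1402 in WT and 30.8% (28.7 to 33.0%) of 1809 in Batf3-/-. C10 made up 17.3% and 19.1%, and C5 the rest.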
